A study of Mus musculus with 34 samples.

Results

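The 10 genes described here encode carriers and pumps of the hepatocyte surface. Slco1a1, Slco1a4, Slco1b2 and Slc10a1 take up solutes from blood, and Slco2a1 is a prostaglandin carrier that endothelial cells also express. Abcb11, Abcb4, Abcc2 and Abcg5 export into bile, and Abcc3 exports back into blood. They were taken by symbol from each of 3 deposited RNA-seq tables and all 10 were found in each, among 46528 rows for mixed-strain tumors, 16140 rows for FVB tumors and 14074 rows for Rag1-/- livers.

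The study profiled bulk liver tumors and livers of mice that carried LAP-tTA and TRE-MYC, a transgene pair that turns on MYC in the liver once doxycycline is withdrawn. Mixed-strain tumors (C57/B6, 129 and FVB) were Arid1a Het (Arid1a fl/+ with Alb-cre, 8 libraries) or WT (Arid1a fl/fl without Cre, 8 libraries), both at about 90 days. FVB tumors were Arid1a Homo (fl/fl with Alb-cre, about 100 days), Het (fl/+ with Alb-cre, about 70 days) or WT (fl/fl without Cre, about 55 days), with 4 libraries each. The livers came from FVB Rag1-/- mice of about 42 days, wild type for Arid1a and lacking mature lymphocytes, taken 14 days after an adenovirus carrying human ARID1A (ad-ARID1A, 3 libraries) or Cre (ad-Cre, 3 libraries). One label of these samples names tumor and another liver, and they are called livers here. Tumors were collected at death. Alb-cre acts in hepatocytes and bile duct cells and was present only in the Het and Homo groups. Cre and, in FVB mice, age therefore cannot be told apart from Arid1a genotype. In the Rag1-/- livers only the controls received Cre. The labels do not say which libraries share a mouse, so p-values measure the spread between these libraries.

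Hepatocytes are polarised cells. Their basolateral face meets sinusoidal blood, and their apical face lines the bile canaliculus. Slc10a1 (NTCP) takes up conjugated bile salts together with sodium, while the Slco carriers (OATPs) take up other organic anions, including drugs. Abcb11 (the bile salt export pump) drives bile salts into the canaliculus, Abcb4 supplies the phospholipid that protects the duct from them, Abcc2 exports bilirubin glucuronides and glutathione conjugates, and Abcg5 exports sterols with its partner Abcg8.

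Sequencing depth, recovered from the smallest step between low values, ran over about 2275000 to 5280000 reads per library in mixed-strain tumors, 6631000 to 12020000 reads in FVB tumors and 8718000 to 10600000 reads in the livers. Values are CPM, reads of a gene scaled to the library total, not corrected for gene length unless stated. All 9 hepatocyte markers were present in each table. Their summed level ran from 2133 to 10752 CPM in mixed-strain tumors, from 4090 to 12800 CPM in FVB tumors and from 67047 to 82717 CPM in the livers, in tables that were normalized separately. The targeted gene Arid1a had a median of 260.4 CPM in mixed-strain Het tumors and 349 CPM in WT tumors. In FVB tumors its median was 217 CPM in Homo, 204.5 CPM in Het and 287 CPM in WT tumors, and none of these Arid1a differences passed limma at an adjusted p under 0.05. The tables count whole genes, so they do not check deletion of the floxed part, and human ARID1A was not measured in the livers.

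Of the uptake genes, 3 are neighbours. Slco1b2 lies at chr6:141629518-141686646 on the plus strand, Slco1a4 at chr6:141805440-141856199 and Slco1a1 at chr6:141907282-141946962, both on the minus strand (GRCm38, GENCODE M21). The others are scattered over chromosomes 2, 5, 9, 11, 12, 17 and 19. The sequence before the start site is shown for a pair of genes from each of the groups that moved together across tumors, described further on. Sequences are the 250 bases before the start site, from RefSeq (GRCm38.p6), at chr6:141629268-141629517 (plus strand, Slco1b2), chr6:141946963-141947212 (minus, Slco1a1), chr12:80968706-80968955 (minus, Slc10a1) and chr2:69342617-69342866 (minus, Abcb11).
Slco1b2: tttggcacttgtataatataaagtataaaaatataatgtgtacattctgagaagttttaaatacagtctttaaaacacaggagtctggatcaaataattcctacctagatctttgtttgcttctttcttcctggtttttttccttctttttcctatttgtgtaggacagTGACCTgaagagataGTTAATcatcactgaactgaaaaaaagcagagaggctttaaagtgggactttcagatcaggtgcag
Slco1a1: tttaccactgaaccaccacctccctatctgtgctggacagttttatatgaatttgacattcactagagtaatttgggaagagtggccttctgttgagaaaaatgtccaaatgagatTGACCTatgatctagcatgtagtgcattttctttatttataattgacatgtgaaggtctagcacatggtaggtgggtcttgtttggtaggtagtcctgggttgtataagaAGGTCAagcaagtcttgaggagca
Slc10a1: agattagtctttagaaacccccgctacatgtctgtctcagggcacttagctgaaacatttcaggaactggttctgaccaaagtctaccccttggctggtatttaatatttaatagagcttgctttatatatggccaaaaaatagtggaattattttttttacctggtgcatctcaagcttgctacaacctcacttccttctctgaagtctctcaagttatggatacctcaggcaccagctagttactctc
Abcb11: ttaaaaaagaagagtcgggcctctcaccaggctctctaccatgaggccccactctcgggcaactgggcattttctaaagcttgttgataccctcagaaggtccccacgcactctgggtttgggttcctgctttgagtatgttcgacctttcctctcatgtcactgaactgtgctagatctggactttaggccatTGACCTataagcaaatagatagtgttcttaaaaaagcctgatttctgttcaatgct
Capitals mark the letters GTTAAT (a core site of the liver factor HNF1) and TGACCT (the core site of nuclear receptors), each searched on both strands, so that AGGTCA is the second one read on the other strand. Slco1b2 held GTTAAT from 66 to 61 bases before the start and TGACCT from 81 to 76 bases before it. Slco1a1 held TGACCT on both strands, Abcb11 held it once, and the Slc10a1 window held neither. Promoters were matched for 9 of 10 members, and GTTAAT was found in Slco1b2 alone among them. Of 32851 promoters of this length, 6.43% held GTTAAT and 14.0% held TGACCT. Abcc2 and a second Slc10a1 window also held TGACCT. Of the other motifs searched, CACGTG (6.02% of all promoters) was in no member, and TATAAA (12.4%) and TTCNNNGAA (7.02%) are not marked. No entry was matched for Abcc3.

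The order of levels, set per kilobase of exon, differed between livers and tumors. In ad-ARID1A livers the highest median was that of Slco1b2 at 235 CPM per kb, then Slc10a1 at 184 and Slco1a1 at 155.5 CPM per kb. In ad-Cre livers the first were Slco1b2 at 197, Slc10a1 at 192 and Abcb11 at 146 CPM per kb. The libraries of Slc10a1 in ad-Cre livers, 153 to 230 CPM per kb, overlapped those of both neighbours in that order. Slco1a4 was last in every group of all 3 tables.

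In tumors Slco1a1 and Slco1a4 stood low in that order, while the place of Slco1b2 varied between groups. In FVB tumors Abcb11 led, with medians of 77.3 CPM per kb in Homo, 64.1 in Het and 48.8 in WT tumors, followed by Slc10a1 and Abcc2 in all 3 groups. Slco1b2 had medians of 2.21 CPM per kb in Homo, 3.33 in Het and 11.7 in WT tumors, which ranked 7, 6 and 4 of the 10 genes in those groups. In mixed-strain WT tumors Abcb11 also led, at 89.8 CPM per kb. In mixed-strain Het tumors Abcc2 led at 32.7 CPM per kb, with a median of 20.3 CPM per kb for Abcb11. Libraries of these leading genes overlapped within each tumor group. Genes with similar copies are a limit here: 1.64% of the 50-base stretches of Slco1a1 and 1.61% of those of Slco1a4 occur in another gene of that family, and 2.83% of those of Abcb4 occur in other genes, first among them Abcb1a and Abcb1b. Abcg5 overlaps 82 bases of Abcg8 on the opposite strand.

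In mixed-strain tumors, all 10 genes averaged lower in Het than in WT, as did 43.9% of all genes, and none passed limma at a Benjamini-Hochberg adjusted p under 0.05, a threshold that 0.16% of 17552 genes passed. With no adjustment, 7 of the 10 had p under 0.05, all lower, against 7.5% of all genes. No member had its Het libraries all under the WT ones, which held for 0.0798% of all genes. The median log2 fold change was -1.95 over the members and 0.05 over all genes. In bulk tumors, fewer hepatocytes and less transporter RNA per hepatocyte cannot be told apart.

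Slco1b2 (OATP1B2), the carrier of organic anions found mainly on hepatocytes, ran from 0.569 to 33.1 CPM in Het tumors with a median of 5.82, against 10.96 to 583 CPM in WT tumors with a median of 42.3. The value of 583 CPM came from WT replicate 2 alone, and the next WT tumor had 80.0 CPM. The groups overlapped, but 5 of 8 Het tumors lay under the lowest WT tumor. Its log2 fold change was -3.02 ± 0.78 SE (adjusted p = 0.120), the smallest adjusted p among the members. Slco1a1 (OATP1A1), which in mice is a male-predominant liver carrier, was listed at 0 in 3 Het tumors, which allows up to 0.662 to 0.931 CPM (3 reads, counting error only), and reached 6.11 CPM there, against 0.248 to 303 CPM in WT tumors. The WT value of 303 CPM came from replicate 2 alone, and the next WT tumor had 8.92 CPM. The log2 fold change of Slco1a1 was -2.355 ± 0.97 SE (adjusted p = 0.257). The labels give no sex, and the Y-linked gene Ddx3y was detected in every library of all 3 tables, at 6.20 to 8.11 on their log2 scales. Slco1a4 (OATP1A4) was near the detection limit, at 0 in 5 Het and 2 WT tumors, which allows up to at most 1.136 CPM (3 reads), with highest values of 4.98 CPM in Het and 77.3 CPM in WT tumors. The value of 77.3 CPM was also that of WT replicate 2, and the next WT tumor had 24.5 CPM. The log2 fold change of Slco1a4 was -2.255 ± 0.91 SE (adjusted p = 0.252). Slc10a1 ran from 3.99 to 188 CPM in Het tumors with a median of 68.75, and from 85.8 to 216 CPM in WT tumors with a median of 156. WT tumors were close together for this gene, while Het tumors were spread out (log2 fold change -1.66 ± 0.63 SE, adjusted p = 0.228).

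**Figure D1:**
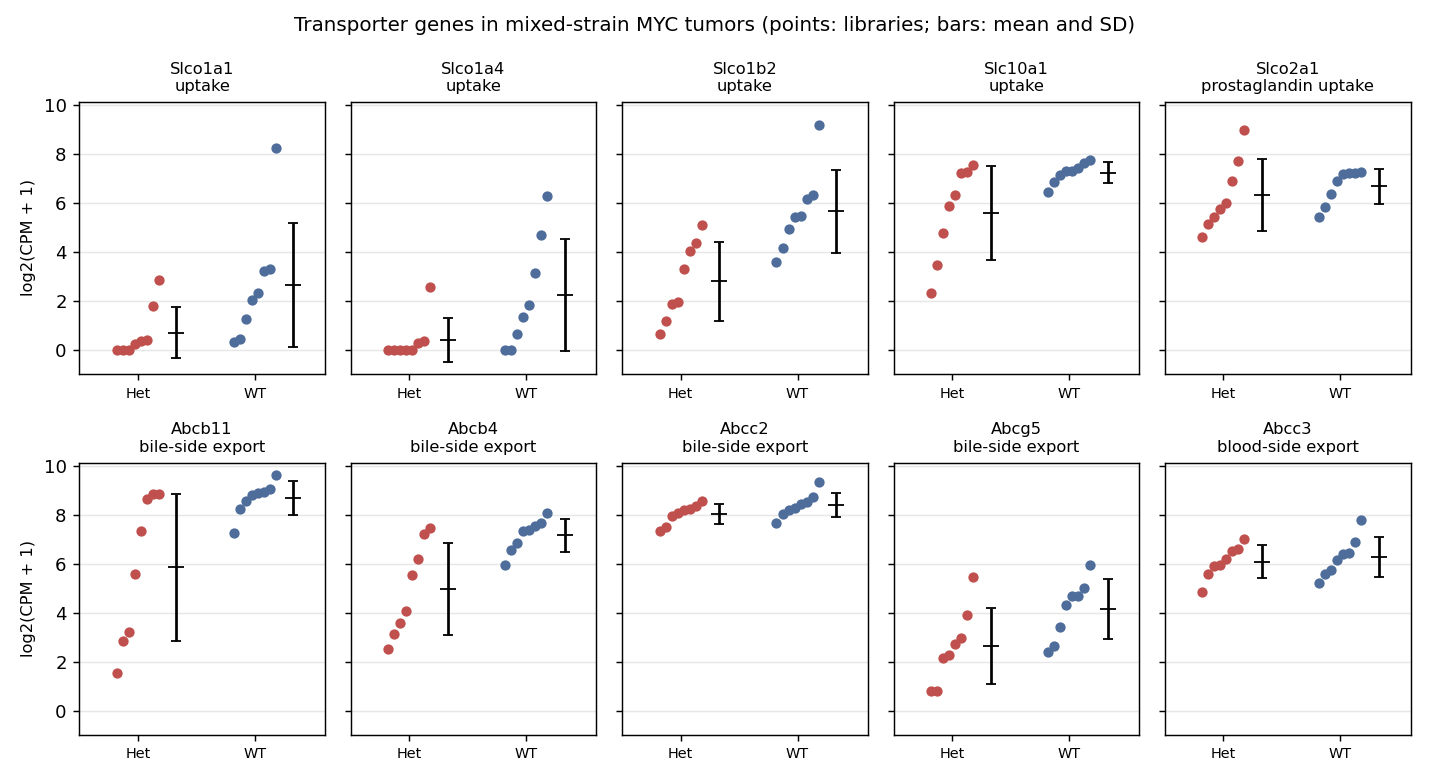
Level of each transporter gene in mixed-strain MYC tumors, as log2(CPM + 1), with 1 point per library and bars for the mean and SD of 8 Het and 8 WT libraries. Abcb11, Abcb4 and Slc10a1 are spread over a wide range in Het tumors, while Abcc2 and Abcc3 cover a like range in both groups.

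Among the bile-side exporters, Abcb11 split the Het tumors. Het replicates 6, 1 and 4 had 1.89, 6.21 and 8.19 CPM and Het 5 had 46.5 CPM. The other 4 Het tumors had 162 to 464 CPM, against 152 to 786 CPM in WT tumors. The upper Het tumors thus lay within the WT range and the lower ones far under it. The log2 fold change over all 16 libraries was -2.87 ± 0.98 SE (adjusted p = 0.194). Abcb4, the phospholipid floppase, had 4.74 to 174 CPM in Het tumors with a median of 30.3, against 60.4 to 264 CPM in WT tumors with a median of 163. Abcb4 had a log2 fold change of -2.24 ± 0.64 SE (adjusted p = 0.143), and Het 1, 4, 5 and 6 were again its lowest libraries. Abcg5, a subunit of the sterol exporter, had medians of 4.63 CPM in Het and 21.8 CPM in WT tumors (log2 fold change -1.64 ± 0.67 SE, adjusted p = 0.258).

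Abcc2 and Abcc3 were spread less widely in Het tumors than Abcb11. Abcc2 had 159 to 371 CPM in Het tumors and 203 to 638 CPM in WT tumors, with a log2 fold change of -0.38 and a 95% interval of -0.82 to 0.06. In Het 1, 4 and 6, where Abcb11 was under 10 CPM, Abcc2 had 289, 179 and 246 CPM. Abcc3, the blood-side exporter, had 28.0 to 129 CPM in Het and 36.0 to 217 CPM in WT tumors (log2 fold change -0.20 ± 0.34 SE, adjusted p = 0.802). Slco2a1 had a median of 57.8 CPM in Het and 131 CPM in WT tumors, with 507.5 CPM in Het 5 alone (log2 fold change -0.365 ± 0.51 SE, adjusted p = 0.755).

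Hepatocyte markers were lowest in part of the same tumors. Their sum was 3514 CPM in Het 1, 2467 in Het 4 and 2133 in Het 6, against 4494 to 10752 CPM in WT tumors. The highest WT sum was that of WT 2, and the next was 6137 CPM. All 9 markers averaged lower in Het with none passing. So did 7 of 10 endothelial, 6 of 7 macrophage, 7 of 8 stellate and 5 of 5 tested neutrophil markers, again with none passing. All 6 erythroid markers did as well. Among T and NK cell markers 3 of the 5 tested averaged lower, and among B and plasma cell markers 1 of the 3 tested, with none passing. The endothelial sum of 421.5 CPM in Het 5 was the highest among Het tumors, as was its Slco2a1. Het 8 had the next highest Slco2a1 at 210 CPM, but the lowest endothelial sum among Het tumors at 137 CPM. Of the 8 biliary and progenitor markers 4 averaged higher and 4 lower, with none passing. Their sum was 271.5, 557.5 and 279 CPM in Het 1, 5 and 6 and 127.6 to 138.5 CPM in the other Het tumors, against 117 to 319 CPM in WT tumors, so 3 of the 4 Het tumors lowest in Abcb11 had the highest sums of their group. Of these markers Onecut1 had the smallest p in limma and was lower, at -0.45 ± 0.16 SE on the log2 scale (adjusted p = 0.211). Epcam, an epithelial adhesion gene named after its values were seen, was higher, at 2.02 ± 0.72 SE (adjusted p = 0.212). The part of these cells in the transporter differences was not tested. Leaving out Het replicate 2 put Slco1b2 (adjusted p = 0.0479) and Abcb4 (adjusted p = 0.0492) past the threshold. That limma fit called 138 of 17552 genes in place of 28. Without WT 2 and Het 5 together, all 10 genes still averaged lower, but 3 rather than 7 had an unadjusted p under 0.05. The share of all genes under that threshold was not counted for this fit. The smallest adjusted p of a member was then 0.217, and 16 of all genes passed.

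**Figure D2:**
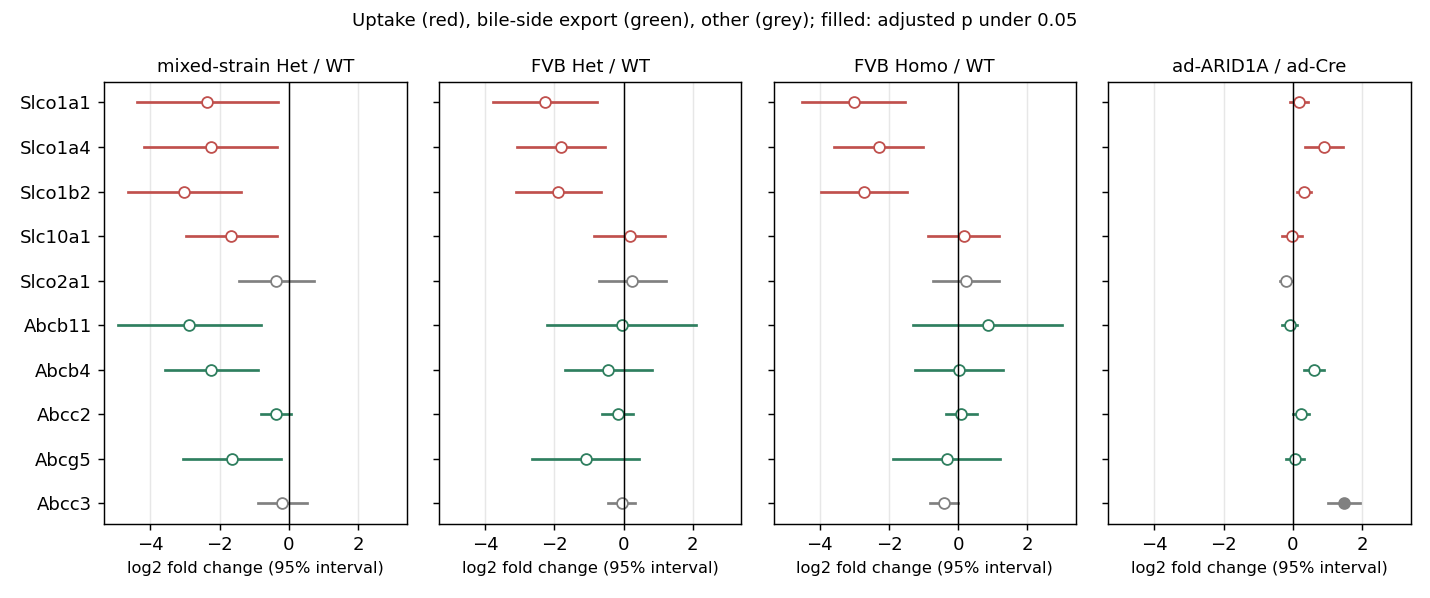
Log2 fold change of each gene with its 95% interval in 4 comparisons, from limma. Filled points passed an adjusted p under 0.05: Abcc3 in ad-ARID1A livers is the only one. Slco1a1, Slco1a4 and Slco1b2 lie below 0 in all 3 tumor comparisons shown, while Abcb11 and Slc10a1 lie far below 0 in mixed-strain tumors and near or above it in FVB tumors.

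In FVB tumors, Slco1a1, Slco1a4 and Slco1b2 averaged lower in both Arid1a-deficient groups than in WT, while Slc10a1 and Abcb11 covered like ranges in all 3 groups. None of the 10 genes passed an adjusted p under 0.05 in Homo or Het tumors against WT, where 0.0434% and 0.0248% of 16140 genes passed. Both comparisons share the same 4 WT libraries. Unadjusted, 4 members had p under 0.05 in Homo and 3 in Het tumors, all lower, against 5.64% and 6.07% of all genes.

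Slco1b2 had 15.9, 5.90, 3.12 and 21.0 CPM in Homo tumors, 7.62, 30.7, 14.4 and 18.4 CPM in Het tumors, and 38.6, 104.0, 77.2 and 36.8 CPM in WT tumors. Every Homo and Het library lay under every WT library. The log2 fold change was -2.715 ± 0.57 SE in Homo (adjusted p = 0.127) and -1.88 ± 0.57 SE in Het tumors (adjusted p = 0.169). Slco1a1 had 2.64, 2.19, 1.31 and 7.01 CPM in Homo tumors, 2.085, 8.515, 2.085 and 11.9 CPM in Het tumors, and 8.63, 48.8, 37.3 and 14.7 CPM in WT tumors. Homo libraries lay under all WT libraries, while the highest Het library exceeded the lowest WT one. Its log2 fold change was -3.02 ± 0.70 SE in Homo (adjusted p = 0.156) and -2.26 ± 0.70 SE in Het tumors (adjusted p = 0.170).

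Slco1a4 was listed at 0, which in this table means at or under 1 CPM, in 2 Homo tumors, with 1.01 and 2.20 CPM in the other two. Het tumors had 1.04 to 2.16 CPM and WT tumors 2.35 to 15.8 CPM, so both deficient groups lay under WT. Its log2 fold change was -2.29 in Homo (adjusted p = 0.204) and -1.81 in Het tumors (adjusted p = 0.192), and the floor at 1 CPM limits how low it can read. With all libraries of the group under those of WT, 3 members stood in Homo and 2 in Het tumors, against 1.98% and 2.47% of all genes. With limma array weights these 3 genes passed in Het against WT (adjusted p from 0.0321 to 0.0475), in a fit that called 2287 genes in place of 4. Without WT 1 and WT 2 together, 3 members had an unadjusted p under 0.05 in each comparison, and the share of all genes was not counted. The smallest adjusted p of a member in limma was then 0.471 in Het and 0.523 in Homo tumors. With all libraries it was 0.169 and 0.127.

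**Figure D3:**
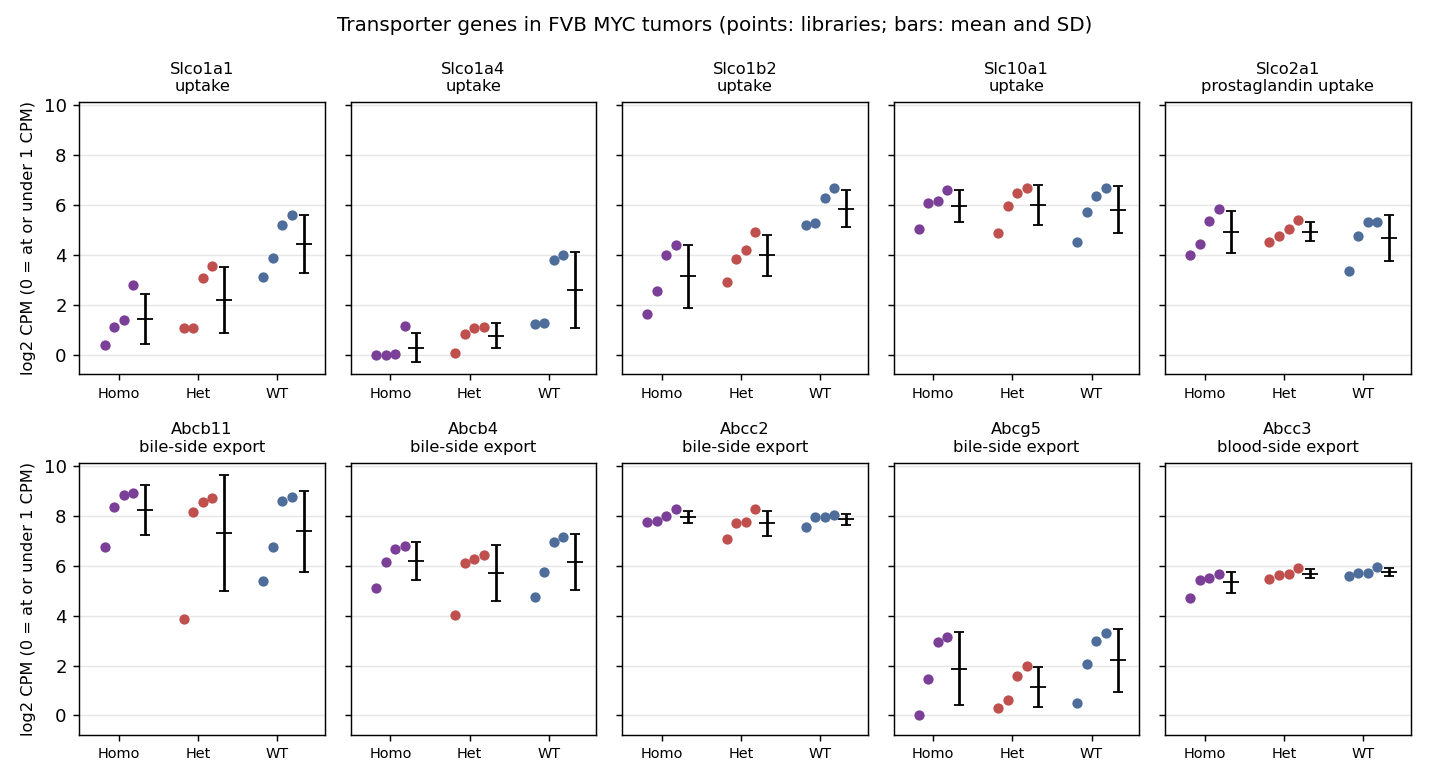
Level of each transporter gene in FVB MYC tumors, as log2 CPM, with 1 point per library and bars for the mean and SD of 4 Homo, 4 Het and 4 WT libraries. Homo and Het points lie under all WT points for Slco1b2 and Slco1a4. Abcb11 and Abcb4 each have 1 Het library far under the rest.

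Slc10a1, the sodium-coupled bile salt carrier, had 33.4 to 96.3 CPM in Homo, 29.5 to 102 CPM in Het and 22.9 to 103 CPM in WT tumors. Its log2 fold change was 0.16 ± 0.47 SE in Homo and 0.175 ± 0.47 SE in Het tumors, with a 95% interval of -0.85 to 1.20 in Het. The 3 groups covered nearly one range, and differences within that interval were not excluded with 4 libraries a group.

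Abcb11 had 465, 109, 488 and 331 CPM in Homo tumors, 282, 425, 377 and 14.5 CPM in Het tumors, and 430.5, 393, 109 and 41.6 CPM in WT tumors. Each group held high and low tumors, so the estimates were wide: 0.85 ± 0.9996 SE in Homo and -0.06 ± 0.9996 SE in Het tumors on the log2 scale. Abcb4 followed the same libraries, with 34.5 to 110 CPM in Homo, 16.45 to 86.2 CPM in Het and 26.7 to 141 CPM in WT tumors. Abcc2 had 218 to 311 CPM in Homo, 135 to 309 CPM in Het and 186 to 261 CPM in WT tumors. Its 95% interval ran from -0.35 to 0.54 in Homo and from -0.61 to 0.28 in Het tumors on the log2 scale. Abcg5 stayed under 10 CPM in every FVB tumor, with a log2 fold change of -0.335 ± 0.72 SE in Homo and -1.09 ± 0.72 SE in Het tumors.

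Abcc3 had 46.2, 42.8, 26.35 and 50.6 CPM in Homo tumors, 44.9 to 61.0 CPM in Het tumors and 48.8 to 62.25 CPM in WT tumors. Its log2 fold change in Homo tumors was -0.41 ± 0.18 SE (unadjusted p = 0.0412, adjusted p = 0.476). The groups overlapped by 1 Homo library. Slco2a1 averaged higher by 0.23 ± 0.45 SE in Homo and 0.25 ± 0.45 SE in Het tumors on the log2 scale.

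Markers of several other cell types also averaged lower in FVB tumors, but not those of all. Over all genes, 52.9% averaged lower in Homo and 47% in Het tumors than in WT. Of 6 biliary and progenitor markers tested, 4 averaged higher in Het and 3 in Homo tumors than in WT. The 2 B and plasma cell markers tested averaged higher in both groups, and none of these passed. Among the 5 neutrophil markers tested, 3 averaged lower in Homo and 4 in Het tumors, with none passing. Of the 8 stellate cell and fibroblast markers, 8 averaged lower in Homo and 7 in Het tumors than in WT. Lrat, the retinol esterifying enzyme of stellate cells, was lower by 2.50 on the log2 scale in Het tumors (limma, adjusted p = 0.0234). Its mean on that scale was 0.0725 in Het and 2.57 in WT tumors, so the floor at 1 CPM limits this value. Of the 7 macrophage and Kupffer cell markers, 6 averaged lower in Homo and 5 in Het tumors, with none passing, and their summed level was 86.3 to 135 CPM in Homo, 103 to 136 CPM in Het and 110 to 233 CPM in WT tumors. The 9 hepatocyte markers summed to 6394 to 11400 CPM in Homo and 4090 to 9175 CPM in Het tumors. Their sum was 6478 to 12800 CPM in WT tumors, and the groups overlapped. Of these markers, 5 averaged lower in Homo and 7 in Het tumors, with none passing. Unadjusted, 2 in Homo and 3 in Het tumors had a limma p under 0.05, all lower, against 5.64% and 6.07% of all genes. For 1 marker in Homo and 2 in Het tumors all libraries lay under WT, against 1.98% and 2.47% of all genes. Endothelial markers averaged lower for 8 of 10 genes in Homo and 7 of 10 in Het tumors, and erythroid markers for 6 of 6 in both, with none passing. The erythroid sum was 14.75 to 79.3 CPM in Homo, 11.05 to 15.2 CPM in Het and 10.98 to 448 CPM in WT tumors. The part of these cells in the Slco levels was not tested.

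Homo and Het FVB tumors were also compared directly. In limma, no gene of 16140 passed (0%), 623 (3.86%) had an unadjusted p under 0.05, and no member was among those. Slco1b2 differed by -0.835 ± 0.57 SE on the log2 scale, Slco1a1 by -0.76 ± 0.70 SE and Abcb11 by 0.91 ± 0.9996 SE. The 95% interval for Slco1b2 was -2.07 to 0.40, so differences within that range were not excluded with 4 libraries a group. The 4 blood-side uptake genes were all lower and the 4 bile-side exporters all higher in Homo than in Het tumors, with every 95% interval spanning 0. This split rested on single libraries: without FVB Het 4, Abcb11 was at -0.24 and Abcb4 at -0.0933, and Slc10a1, at -0.0175 with all libraries, was at 0.035 with median centring.

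Within groups, some of the 10 genes formed blocks that varied together from tumor to tumor. Correlations were computed for 45 pairs in each tumor table after subtracting group means, and permutation p-values were adjusted over all 90 pairs. Libraries of a table share their normalization. No pair with Slco2a1 or Abcc3 had an adjusted permutation p under 0.05. Abcc2 and Abcg5 passed by rank only, each with Abcb4. Abcc2 had a Spearman rho of 0.668 with it in mixed-strain tumors, and Abcg5 one of 0.741 in FVB tumors (adjusted permutation p = 0.0452 for each). One block joined Slco1a1 with the neighbouring Slco1b2 and Slco1a4, though not every pair of these 3 passed by both measures. In mixed-strain tumors (n = 16), Slco1a1 and Slco1a4 had a Pearson r of 0.899 and a Spearman rho of 0.802 (adjusted permutation p = 0.0027 and 0.0239). Slco1a1 and Slco1b2 had r = 0.774 and rho = 0.6755 (adjusted permutation p = 0.0124 and 0.0452). This second pair leaned on few tumors there, with r = 0.495 once the 2 tumors farthest from the median were left out. In FVB tumors (n = 12) Slco1a1 and Slco1b2 had r = 0.812 and rho = 0.771 (adjusted permutation p = 0.0251 and 0.0452), and r = 0.8165 without the 2 farthest tumors. Slco1a1 and Slco1a4 had r = 0.782 and rho = 0.733 there (adjusted permutation p = 0.0335 and 0.0910). Slco1a4 and Slco1b2 had r = 0.666 and rho = 0.4795 in mixed-strain tumors (adjusted permutation p = 0.0234 and 0.194), and r = 0.3115 without the 2 farthest tumors. In FVB tumors that pair had r = 0.680 and rho = 0.676 (adjusted permutation p = 0.0578 and 0.107).

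The other block joined an uptake carrier with bile-side pumps. Slc10a1 and Abcb11 had r = 0.885 and rho = 0.800 in mixed-strain tumors (adjusted permutation p = 0.0161 and 0.0452) and r = 0.925 and rho = 0.867 in FVB tumors (adjusted permutation p = 0.0124 and 0.027). Abcb11 and Abcb4 had r = 0.887 and rho = 0.888 in mixed-strain tumors (adjusted permutation p = 0.0161 and 0.0239) and r = 0.978 and rho = 0.937 in FVB tumors (adjusted permutation p = 0.0045 and 0.0072). Without the 2 farthest tumors these values were 0.760 and 0.892 for the first pair, and 0.873 and 0.972 for the second, in mixed-strain and FVB tumors. In mixed-strain tumors Slc10a1 and Abcb11 had r = 0.909 within the 8 Het and 0.389 within the 8 WT tumors, a difference that was not tested, while Abcb11 and Abcb4 had 0.903 within Het and 0.7695 within WT tumors.

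Across the blocks, relations differed between tables and pairs. In mixed-strain tumors Slco1b2 and Slc10a1, both uptake carriers, had r = 0.622 and rho = 0.706 (adjusted permutation p = 0.0606 and 0.0452), and r = 0.633 without the 2 farthest tumors. Slco1b2 and Abcb4 had r = 0.541 and rho = 0.571 there (adjusted permutation p = 0.157 and 0.170). In FVB tumors the same pairs had r = 0.359 and rho = 0.413 (adjusted permutation p = 0.554 and 0.4885) and r = 0.119 and rho = 0.0979 (adjusted permutation p = 0.876 and 0.937). Slco1b2 and Abcb11 had r = 0.384 and rho = 0.365 in mixed-strain tumors (adjusted permutation p = 0.419 and 0.525) and r = 0.0905 and rho = 0.112 in FVB tumors (adjusted permutation p = 0.933 and 0.927). FVB Het 4 had the lowest Abcb11 of the table at 14.5 CPM and the lowest hepatocyte marker sum at 4090 CPM, but the highest Slco1a1 of the Het tumors at 11.9 CPM. FVB Homo 3 had the highest Abcb11 at 488 CPM and the lowest Slco1b2 at 3.12 CPM.

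**Figure D4:**
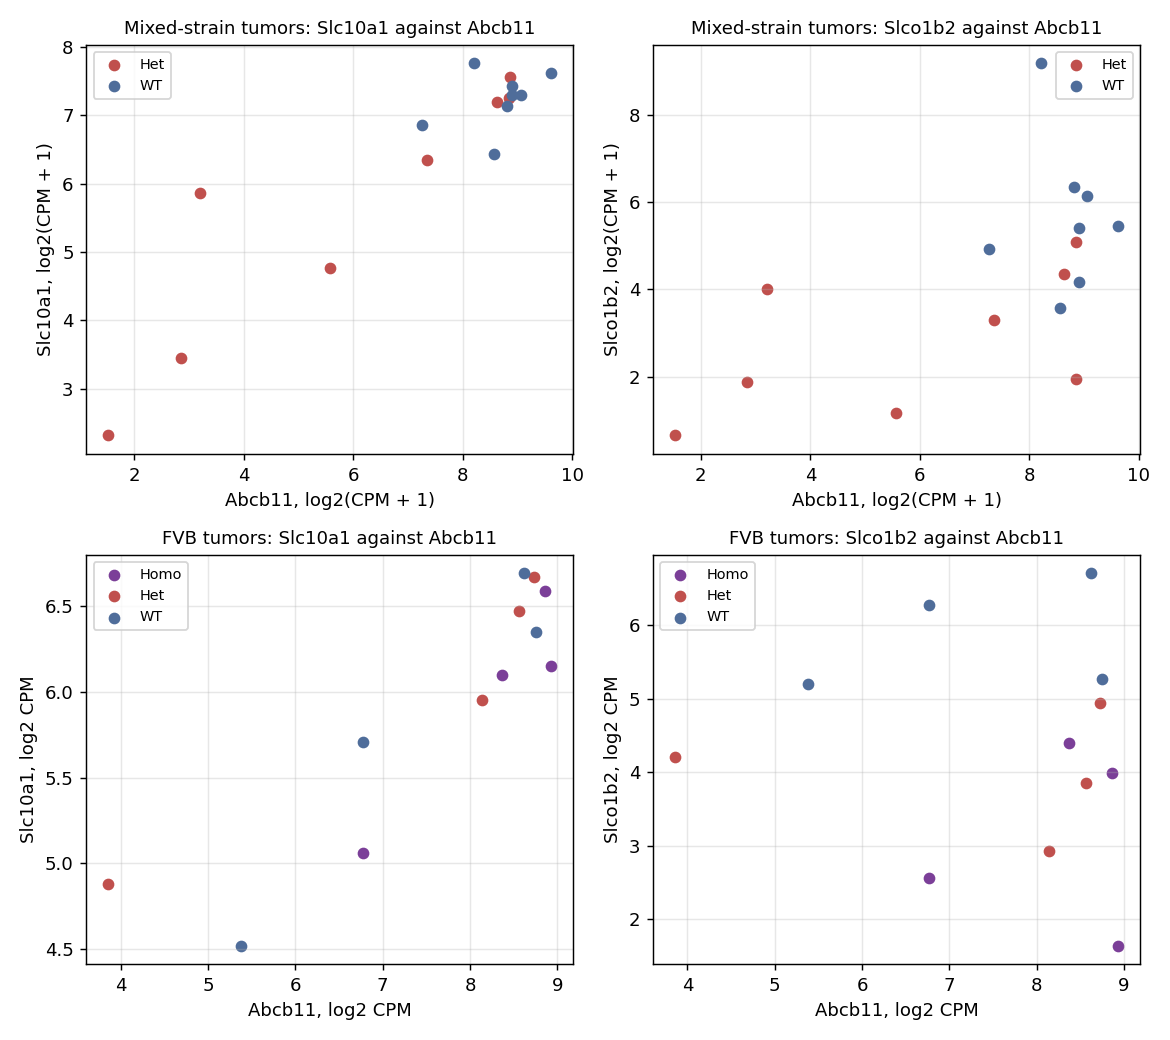
Slc10a1 (left) and Slco1b2 (right) against Abcb11, with 1 point per library, in mixed-strain tumors as log2(CPM + 1) (top) and in FVB tumors as log2 CPM (bottom). Tumors high in Abcb11 are high in Slc10a1 in both tables (r = 0.885 and 0.925 after subtracting group means). Slco1b2 shows no such relation to Abcb11 in FVB tumors (r = 0.0905).

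Of 12427 genes ranked by likeness to Slco1b2 over the 16 mixed-strain tumors, the closest were Aqp9, a glycerol channel of hepatocytes (r = 0.876), Cyp2d9, a cytochrome P450 (r = 0.855), and Cml2 (r = 0.839). Without the 2 farthest tumors these were 0.737, 0.689 and 0.654. The closest to Abcb11 were the mitochondrial carrier gene Slc25a47 (r = 0.954), Slc51b, a subunit of the basolateral bile salt exporter (r = 0.953), and Pemt, which makes phosphatidylcholine (r = 0.947), with 0.909, 0.937 and 0.927 without the 2 farthest. Among the same genes, Abcb4 ranked 31 and Slc10a1 ranked 36 in likeness to Abcb11, and Slco1b2 ranked 1430. In likeness to Slco1b2, Abcc2 ranked 205, Slc10a1 209, Abcb4 442 and Abcb11 1285.

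Uptake was set against bile-side export by subtracting, in each library, the mean log2 level of Abcb11, Abcb4, Abcc2 and Abcg5 from that of Slco1a1, Slco1a4, Slco1b2 and Slc10a1. In mixed-strain tumors this difference averaged -3.35 ± 1.15 in Het and -2.81 ± 1.54 in WT tumors (SD, n = 8 each), so both sides were lower together in Het tumors. In FVB tumors it averaged -3.35 ± 1.07 in Homo, -2.23 ± 1.34 in Het and -1.23 ± 0.93 in WT tumors (SD, n = 4 each). On the uptake side the members' median log2 fold change was -2.50 in Homo and -1.84 in Het tumors, against 0.06 and -0.30 for the exporters. The low uptake values were those of Slco1a1, Slco1a4 and Slco1b2, while Slc10a1 was at 0.16 in Homo and 0.175 in Het tumors. When each library was left out, the score difference from WT ran from -2.57 to -1.71 in Homo and from -1.62 to -0.57 in Het tumors. In the livers the difference averaged -0.13 ± 0.18 with ad-ARID1A and -0.27 ± 0.11 with ad-Cre (SD, n = 3 each). These scores over chosen genes carry no test.

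In the Rag1-/- livers, Abcc3 rose with ad-ARID1A and was the one member to pass. It had 217, 141 and 151 CPM in ad-ARID1A livers, against 66.3, 73.0 and 43.1 CPM in ad-Cre livers. Every ad-ARID1A liver lay above every control. The log2 fold change was 1.49 ± 0.21 SE (adjusted p = 0.0265), a 2.81-fold higher level. In limma 0.32% of 14074 genes passed, and 0.277% passed as higher. The call did not survive the loss of any library: leaving out each of the 6 in turn gave adjusted p-values from 0.06885 to 0.181 with log2 fold changes of 1.26 to 1.64. It was also lost with no variance trend (adjusted p = 0.163).

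Abcb4 had 385, 359.5 and 280.1 CPM in ad-ARID1A livers, against 229, 239 and 198 CPM in ad-Cre livers. The groups did not overlap, and the log2 fold change was 0.61 ± 0.13 SE (adjusted p = 0.0907). Slco1b2 had 1160, 1305 and 1144 CPM with ad-ARID1A, against 1003, 969 and 923 CPM with ad-Cre (log2 fold change 0.32 ± 0.09 SE, adjusted p = 0.199). Slco1a4 had 16.1, 25.8 and 19.4 CPM with ad-ARID1A, against 9.51, 15.1 and 8.69 CPM with ad-Cre (log2 fold change 0.90 ± 0.24 SE, adjusted p = 0.175). In these 3 genes and Abcc3 every ad-ARID1A liver exceeded every control, which held for 13.9% of all genes. Slco2a1 lay the other way, with 132.5, 126 and 141 CPM with ad-ARID1A, against 159.8, 153 and 145 CPM with ad-Cre (log2 fold change -0.20 ± 0.08 SE, adjusted p = 0.377), as did 3.47% of all genes. Endothelial markers, of cells that also express Slco2a1, averaged higher with ad-ARID1A for 10 of 10 genes and summed to 430.7 to 478 CPM, against 378 to 417.5 CPM with ad-Cre. Stellate markers did so for 7 of 8 genes, while hepatocyte markers averaged lower for 7 of 9, none of them passing, and the part of these cells was not tested.

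**Figure D5:**
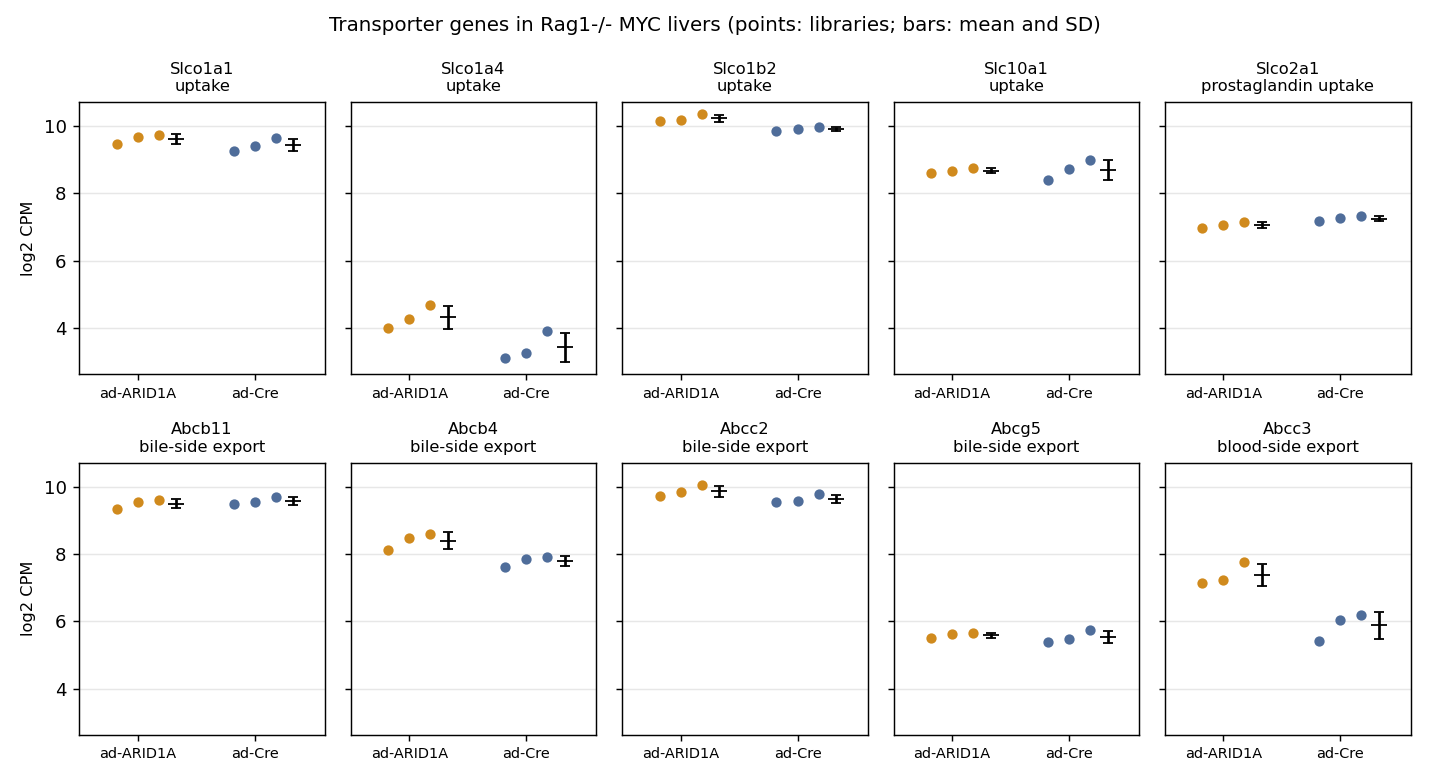
Level of each transporter gene in Rag1-/- MYC livers, as log2 CPM, with 1 point per library and bars for the mean and SD of 3 ad-ARID1A and 3 ad-Cre libraries. The 3 ad-ARID1A points for Abcc3 lie well above the 3 controls, and those for Abcb11 and Slc10a1 overlap the controls.

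The remaining members overlapped between the viruses. Abcb11 had 776, 653 and 744 CPM with ad-ARID1A, against 749.6, 837.5 and 719 CPM with ad-Cre, a log2 fold change of -0.09 with a 95% interval of -0.31 to 0.14. Slc10a1 had an interval of -0.32 to 0.28, Slco1a1 of -0.07 to 0.45, Abcc2 of -0.0025 to 0.48 and Abcg5 of -0.19 to 0.31. Across all genes 66.1% averaged higher with ad-ARID1A, with a median of 0.09, and 7 of the 10 members did.

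Other genes of the same processes were counted from lists. Of 11 other uptake carriers, 8 other canalicular transporters, 7 other blood-side exporters, 12 apical anchoring and trafficking genes and 19 transporter regulators, none passed limma in any of the 5 comparisons, where 9 or 10 of the 11 uptake carriers and 6 of the 7 blood-side exporters could be tested. In mixed-strain tumors 7 of the 8 canalicular genes averaged lower in Het, 4 of them with an unadjusted p under 0.05. The one with the smallest p was Abcb1b, an efflux pump for lipophilic drugs, at -2.725 ± 0.61 SE (adjusted p = 0.0824). Of the regulators, 16 of 19 averaged lower there. Nr0b2 (SHP), the corepressor induced by bile acids through their receptor FXR, had the smallest p, at -2.55 ± 0.84 SE (adjusted p = 0.175). Slc51b had the smallest p of the blood-side exporters, at -2.31 ± 0.82 SE (adjusted p = 0.207).

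In FVB tumors 14 of 19 regulators averaged higher in Homo and 14 of 19 in Het than in WT. Over all genes these shares were 46.7% and 52.7%. The smallest p in Het was that of Ppara, the fatty acid sensing receptor, at 1.015 ± 0.31 SE (adjusted p = 0.173). Atp8b1, the flippase that keeps the canalicular membrane ordered, had the smallest p of the canalicular genes in Het, at -1.80 ± 0.54 SE (adjusted p = 0.168). Slc27a5, the bile acid and fatty acyl CoA ligase, had the smallest p of the uptake list in Homo, at -1.44 ± 0.47 SE (adjusted p = 0.307). In the livers 15 of 19 regulators averaged higher with ad-ARID1A. Nfe2l2 (NRF2), the factor of the oxidative stress response, was at 0.64 ± 0.12 SE (adjusted p = 0.0547), with 5 regulators at an unadjusted p under 0.05 against 9.88% of all genes as higher. Among the other lists in the livers, Abcb1b had the smallest p of the canalicular genes at 1.59 ± 0.49 SE (adjusted p = 0.230), and Cldn1, a tight junction gene, that of the anchoring genes at -0.32 (adjusted p = 0.194). In Homo against WT tumors the anchoring genes were evenly divided, 6 lower and 6 higher, with the smallest p for Mal2 at -1.695 (adjusted p = 0.403).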

How the data were processed

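Bulk RNA-seq was measured in 34 libraries. Per the labels' protocols, RNA was taken with Trizol and miRNeasy columns and a NuGEN kit served for library construction. Trim Galore, HISAT2, SAMtools and featureCounts with GRCm38 are named in the submitters' processing notes, with no versions, and the strand setting of counting was not given in the sources at hand. The authors deposited log2 values. Those of mixed-strain tumors are named RPKM but sum alike across libraries after back-transformation, as CPM do, so they were read as log2(CPM + 1). The deposited FVB and Rag1-/- log2 values were read as normalized log2 CPM, with values at or under 1 CPM listed at 0. Because the unit was CPM, the planned log2(value + 0.5) was applied to CPM. The tables were normalized separately, so tests stayed within a table.

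Tests were limma 3.58.1 (R 4.3.3) with a variance trend, two-sided, with Benjamini-Hochberg adjustment over all genes of a table: a mean of at least 0.5 CPM for mixed-strain tumors, all rows elsewhere, 3 groups in 1 fit for FVB tumors. The script was tested on simulated data. Counts of reads were not used, and depth came from the step between low values. Correlations used 100000 permutations within groups (numpy 2.4.6). Members and gene lists were chosen with earlier results of these data known. Every member is reported, from each other list the gene with the smallest p in a comparison could be named, and the 3 genes most like Slco1b2 and Abcb11 are named. Alternatives covered the pseudocount, filter, centring, array weights, variance trend, replicate block and leaving out libraries.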

Additional observations from a re-analysis of the deposited data

Results flagged for a closer look

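For 10 genes and 2 summary scores (the members' median and uptake minus export) in 5 groups of 4 to 8 libraries, 60 sets in all, 5 sets held 1 library that stood apart from the others by a gap test (Dixon's test at the 95% level), which chance gives in about 1 set in 20. Slco1a4 in mixed-strain Het replicate 2 was 2.45 on the log2(CPM + 0.5) scale, where the next Het library had -0.35. Slco1a1 in mixed-strain WT replicate 2 was 8.25 on that scale, where the next WT library had 3.235. Abcb11 in FVB Het replicate 4 was 3.86 on the log2 CPM scale, where the next lowest Het library had 8.14. Abcb4 in the same library was 4.04, where the next had 6.13. Slco1a4 in FVB Homo replicate 4 was 1.14 on the log2 CPM scale, where the next had 0.01. In that group 2 of the 4 values are listed at 0, the floor of the table at 1 CPM, so the floor limits what this gap shows.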

How the results depend on the processing

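Counts of members that passed changed under 4 alternatives, and the cause was not tested. In mixed-strain Het tumors 1 member passed with a replicate block (Slco1b2, adjusted p = 0.03585), and 0 to 2 when leaving out each library. In FVB Het tumors 3 passed with array weights. In the livers 0 passed with no variance trend, 2 with the replicate block (Abcc3, adjusted p = 0.0170, and Abcb4, adjusted p = 0.0384), and 0 without any 1 library. Replicate numbers were not taken as pairs, since same-numbered libraries correlated at -0.28 to 0.36 and most libraries correlated best with another number. This held less well in FVB tumors against WT. Homo replicates 1, 3 and 4 correlated best with their own number, at 0.22, 0.13 and 0.07. Het replicates 2 and 4 did so at 0.32 and 0.36. Over all genes, limma called 28 in mixed-strain tumors against 3 with no filter, 101 with array weights, 75 with the block and 8 to 138 when leaving out each library. It called 4 in FVB Het tumors against 2287 with array weights, 0 with the block, 1 with 2 groups fitted and 0 to 256, and 7 in Homo tumors against 21, 1, 0 and 0 to 36 in the same order. In the livers it called 45 against 1 with no variance trend and 0 to 19.

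Some differences that had not passed changed sign, among them Abcb11 in Homo against Het, at 0.91 with all libraries. With array weights, Abcb11 was 0.0456 in FVB Het tumors against WT, Slc10a1 was -0.33, Abcb11 -0.0647 and Abcb4 -0.62 in Homo against WT, and Abcb11 was -0.11 and Abcb4 -0.0893 in Homo against Het. Without WT 1 and WT 2, Slco2a1 was -0.38, Abcb11 1.25, Abcb4 0.46 and Abcc3 0.0325 in Het, and Slco2a1 was -0.405 and Abcg5 0.595 in Homo tumors. With median centring, Slc10a1 was 0.035 and Slco2a1 0.03 in Homo against Het, and Abcg5 was -0.0233 in the livers. Leaving out each library gave these ranges. In FVB Het tumors they were -0.72 to 1.10 for Abcb11, -0.91 to 0.12 for Abcb4, -0.36 to 0.04 for Abcc2, -0.14 to 0.0175 for Abcc3, -0.26 to 0.55 for Slc10a1 and -0.20 to 0.46 for Slco2a1. In Homo tumors they were -0.44 to 0.39 for Abcb4, -0.0175 to 0.16 for Abcc2, -0.91 to 0.29 for Abcg5, -0.28 to 0.46 for Slc10a1 and -0.22 to 0.53 for Slco2a1. For Homo against Het they were -0.24 to 1.40 for Abcb11, -0.0933 to 0.82 for Abcb4, -0.39 to 0.29 for Slc10a1 and -0.33 to 0.28 for Slco2a1. They were -0.35 to 0.0180 for Abcc3 in mixed-strain tumors, and -0.00833 to 0.16 for Abcg5 and -0.18 to 0.12 for Slc10a1 in the livers. The members' median ran from -0.81 to 0.03 in FVB Het, -0.45 to 0.09 in Homo and -0.27 to 0.11 in Homo against Het tumors. In all alternatives run, Slco1a1, Slco1a4 and Slco1b2, where tested, kept their sign in every comparison.

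One read was worth 0.189 to 0.4396 CPM in mixed-strain libraries, so Slco1a1 and Slco1a4 rest on few reads there, and values under 1 CPM were not resolved in FVB tumors.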
